A study of Mus musculus with 6 samples.

Results

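Translation initiation and elongation factors are the proteins that load ribosomes onto mRNAs, find the start codon and move the ribosome along the message. Their genes were taken as the protein-coding mouse genes whose symbols begin with Eif1 to Eif6 or with Eef1 or Eef2, which gave 68 of the 55487 gene identifiers in the count table. Another 11 matching symbols were left out, 10 of them pseudogenes and 1 a non-coding RNA. Their mRNA was compared between 3 cultures in normal glucose, at 5 mmol/L, and another 3 in high glucose, at 20 mmol/L, each kept for 48 hours and sequenced as bulk poly(A) RNA. High glucose in the medium was used by the study as a model of the high blood sugar of diabetes. The labels describe all 6 as C57BL/6 skin endothelial cells, and the methods describe an isolation from 4 to 6 mice aged 2 to 3 months with CD31 MicroBeads. The study counts its replicates per group as mice, but neither the labels nor the methods tie a culture to a mouse or to an isolation of its own. P values therefore measure the spread between these cultures, which may in part be technical.

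Initiation begins when eIF2 brings the initiator tRNA to the small ribosomal subunit, together with eIF1, eIF1A, eIF5 and the large eIF3 complex. The cap-binding complex eIF4F then recruits the mRNA, and this step is restrained by the 4E-binding proteins, which the kinase complex mTORC1 releases from eIF4E by phosphorylation. During elongation, eEF1A delivers each aminoacyl-tRNA, the eEF1B complex reloads eEF1A with GTP, and eEF2 moves the ribosome along by a codon until its kinase eEF2K inhibits it. Several of these mRNAs, those of the elongation factors among them, begin with a run of pyrimidines (a terminal oligopyrimidine tract), which places their translation under mTORC1 control.

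The libraries held between 120192466 and 146881356 counts, so that 3 counts, the limit of detection used here, corresponded to 0.0204 to 0.0250 CPM, that is counts scaled to the same library total. This limit of detection covers counting error only. The cell type was checked on marker genes. Pecam1, which encodes the CD31 used for enrichment, was at 0.128 ± 0.0378 CPM (SD, n = 3) in normal and 0.103 ± 0.0359 CPM in high glucose. Tie1, Emcn, Cldn5, Sox17 and Sox18 did not reach the minimum count, and Erg, Esam and Vwf had means below 1 CPM. Others were higher, with Eng at 155 CPM in normal and 140 CPM in high glucose and Flt1 at 55.3 and 38.4 CPM. Egfl7 was at 11.1 and 9.44 CPM, Kdr at 4.96 and 5.50 CPM and Plvap at 4.51 and 6.14 CPM. Cdh5 was at 1.80 and 0.876 CPM and Tek at 1.29 and 2.04 CPM. The 16 endothelial markers together took 0.0230% to 0.0255% of counts in the normal and 0.0191% to 0.0198% in the high glucose libraries, and of the 11 that were tested 3 were lower and 3 higher. The 15 fibroblast markers took 4.48% to 4.78% in normal and 7.18% to 7.58% in high glucose, with 10 of them higher and 4 lower. In every library the fibroblast markers thus took a far larger share than the endothelial markers. Taken as lists, these markers do not bear out the endothelial label of the cultures, although single endothelial markers such as Eng and Flt1 were expressed. The 7 pericyte and smooth muscle markers took 0.0647% to 0.0724% in normal and 0.0493% to 0.0523% in high glucose, while keratinocyte markers took 0.000418% to 0.000528% and 0.000440% to 0.000487% and macrophage markers 0.000882% to 0.000983% and 0.000552% to 0.000628%. The part of these shifts in the results on translation factors was not tested. In bulk RNA, fewer cells of a type and less RNA per cell cannot be told apart.

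Of 13 tested genes with an elongation factor symbol, mRNA was lower in high glucose for 7 and higher for 1, and 5 did not pass. The 7 lower genes are those that encode neither the eEF2 kinase nor a methyltransferase. This set of 7 is not one of the role groups used below and was not tested as a set. Within it, Eef1d, Eef1e1 and Eef2 passed in 13, 13 and 12 of 18 other settings. Of 54 tested genes with an initiation factor symbol 9 were lower, or 16.7%, close to the 14.5% of all tested genes that were lower. The mRNA of the eEF2 kinase, of a 4E-binding protein, of the eIF4E transporter and of a cap-binding paralog was higher. Of the 68 genes, 67 had enough counts to be tested, and Eif4e1b, an oocyte form of eIF4E, had 0 counts in all 6 libraries. Among the 67, 16 were lower and 4 higher in high glucose at an adjusted P value under 0.05 (quasi-likelihood test of edgeR, adjusted by Benjamini-Hochberg over all 19015 tested genes). Over all tested genes, 14.5% were lower and 16.9% higher, 31.4% in either direction. The count of lower genes thus lay above the share seen over all genes, and the count of higher genes below it. The 28 genes at an unadjusted P value under 0.05 include these 20. The normalized values of the cultures did not overlap for 30 genes, with 26 lower and 4 higher in high glucose, whereas 21.3% of all tested genes lay wholly below and 25.1% wholly above. An exact permutation test of 3 cultures against 3 cannot give a P value below 0.1.

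The differences were small. Only Eef1a2 differed by more than 1.5-fold among the 20 called genes. The log2 fold changes of the 67 genes, high against normal glucose throughout, had a median of -0.12, beside a median of 0.0062 over all tested genes, and 47 were below and 20 above 0. Deviations were taken on the log2 scale from each gene's mean over the normal glucose cultures. The values of those cultures thus lie around 0 by construction. The median deviation of the 67 genes was 0.052, -0.047 and -0.012 in the normal glucose cultures. In the high glucose cultures it was -0.15, -0.062 and -0.094, so the groups separated by little. The 68 genes together took 1.94%, 1.85% and 1.88% of all counts in the normal glucose cultures, against 1.51%, 1.53% and 1.53% in the high glucose cultures. These shares did not overlap (exact P = 0.1, the smallest this design allows). They are shares of unscaled counts, of which Eef1a1 held the largest part. Scaling by library size alone moved the median of all genes to -0.11 and gave 37 lower and 1 higher. Of all tested genes, 25.7% were lower and 9.57% higher with that scaling. The median of the translation factor genes relative to all genes was -0.125 both with that scaling and with TMM. A change of scaling shifts all genes nearly alike, so this relative median stays the same by construction and does not bear on the counts. Upper quartile scaling gave 24 lower and 2 higher, beside 17.9% and 13.8% of all tested genes. Leaving out a high glucose culture, which leaves 3 against 2, gave 9 lower without replicate 1, 10 without replicate 2 and 9 without replicate 3. The higher genes numbered 2 in each of these fits and without normal glucose replicate 2 or 3, and 3 without normal glucose replicate 1.

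**Figure D1:**
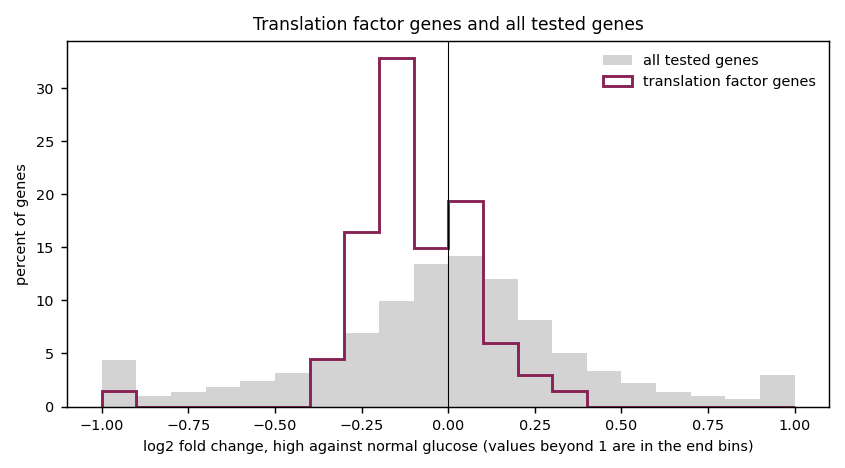
Histogram of log2 fold changes, high against normal glucose (x axis, values beyond 1 placed in the end bins), as percent of genes (y axis) for all 19015 tested genes in grey and the 67 tested translation factor genes as an outline. The outline sits to the left of the grey histogram, with a median of -0.12 against 0.0062.

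**Figure D2:**
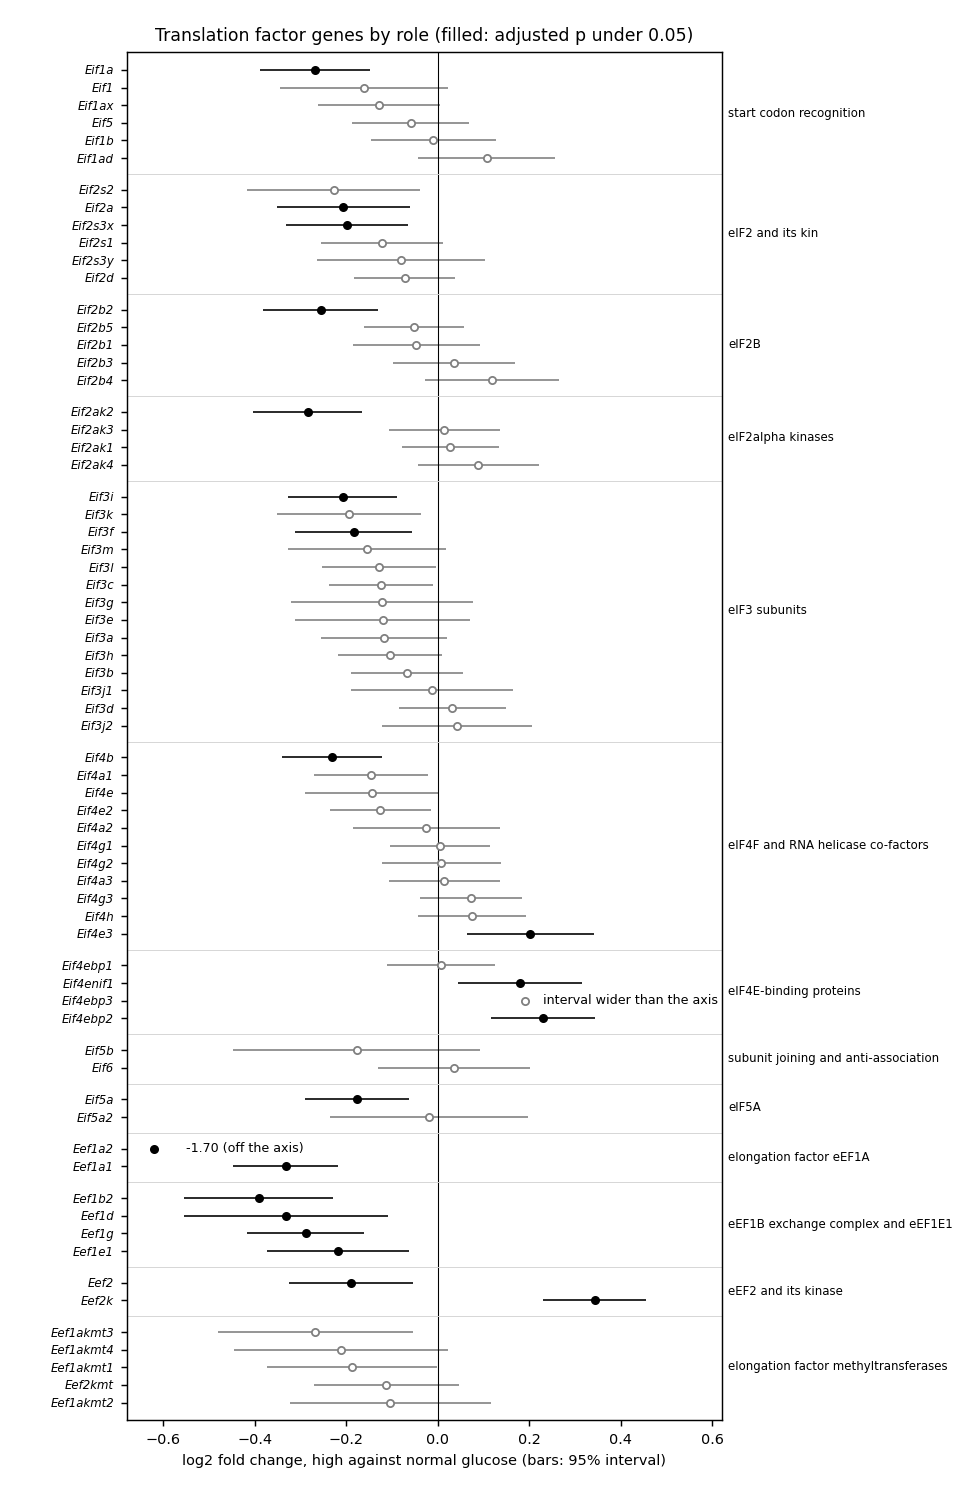
Log2 fold changes, high against normal glucose (x axis), of the tested translation factor genes by role, with bars for 95% intervals and filled points for an adjusted P value under 0.05. The 7 genes in the rows of eEF1A, of eEF1B with eEF1E1 and of eEF2 are filled and to the left, Eef2k is filled and to the right, and most initiation factors are open points near 0.

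In the order of their levels, 4 genes of elongation factors stood first, while Eef1d at 18.7, Eef1a2 at 6.39 and Eef1e1 at 3.85 CPM per kilobase ranked 36, 56 and 62 among the 67 tested genes. Per kilobase of exon, Eef1a1 had 2643 CPM in normal glucose, Eef2 757, Eef1g 265, Eef1b2 143 and Eif5a 142, and Eef1b2 and Eif5a did not differ beyond their spread. All 5 were lower in high glucose. The next in order, Eif1 at 117, Eif4g2 at 109, Eif4a1 at 106 and Eif3h at 98.97 CPM per kilobase, did not pass the test. Apart from Eif4ebp3, which stood at 0.149 CPM per kilobase, the lowest were Eef1akmt3 at 1.40 and Eif5a2 at 2.00.

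Eef1a1 and Eef1a2 encode the paralogs of eEF1A, and both fell. Eef1a1 (ENSMUSG00000037742, chr9:78478449-78489151, minus strand of GRCm38), the form most tissues use, was at 6829, 6326 and 6613 CPM in normal glucose and 5105, 5326 and 5268 CPM in high glucose. Every high glucose culture lay below every normal glucose culture, a log2 fold change of -0.33 (SE 0.052, adjusted P = 0.000755). Its mean fell by 20.6%. Eef1a2 (ENSMUSG00000016349, chr2:181147653-181157014, minus strand), known as the form of neurons and striated muscle, was at 13.3, 12.9 and 13.7 CPM in normal and 4.23, 4.03 and 4.01 CPM in high glucose. This was the largest difference among the 67 genes, with a log2 fold change of -1.70 (SE 0.073, adjusted P = 1.22e-07), and the level fell by 69.3%. The minor form remained low beside the major form, at 6.39 CPM per kilobase in normal and 1.96 in high glucose. Of the windows of 75 bases, the read length stated in the methods, in annotated Eef1a1 transcripts, 41.7% also occurred in 14 other genes, 13 of them pseudogenes, so its reads could have been divided among copies. No window of Eef1a2 occurred elsewhere.

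The eEF1B exchange complex moved in the same direction. Eef1b2 (chr1:63176825-63180486, plus strand), which encodes the alpha exchange subunit, was at 399.7, 322 and 366 CPM in normal and 274, 276 and 279 CPM in high glucose. The normal glucose cultures were spread widely and the high glucose cultures closely, without overlap, and the log2 fold change was -0.39 (SE 0.073, adjusted P = 0.00248). Eef1d (chr15:75894205-75909556, minus strand), the delta exchange subunit, was at 144, 103 and 118 CPM and 94.6, 98.6 and 96.1 CPM, with a log2 fold change of -0.33 (SE 0.10, adjusted P = 0.0289). Normal glucose replicate 1 was the highest culture and the gap to the high glucose group was narrow for replicate 2. The call on Eef1d was lost without any of the high glucose replicates 1, 2 and 3 (adjusted P = 0.0779, 0.0602 and 0.0684), without normal glucose replicate 3 (adjusted P = 0.0526) and with no filter (0.0516). Without normal glucose replicate 1 the log2 fold change was -0.21 (adjusted P = 0.0181). Exons of Eef1d overlap those of Naprt on the same strand, and reads in the overlap could belong to either gene.

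Eef1g (chr19:8967041-8978479, plus strand), which encodes the gamma subunit that anchors the complex, was at 727, 644 and 694 CPM in normal glucose and 549, 579 and 563 CPM in high glucose. The groups did not overlap, and the log2 fold change was -0.29 (SE 0.058, adjusted P = 0.00360). Of its windows, 56.5% also occurred in 4 pseudogenes. Eef1e1 (chr13:38644207-38659058, minus strand) carries an elongation factor symbol, but its product is known as an auxiliary protein of the tRNA synthetase complex. It was at 13.5, 12.1 and 11.98 CPM in normal and 10.6, 10.8 and 10.9 CPM in high glucose, again without overlap, with a log2 fold change of -0.22 (SE 0.070, adjusted P = 0.0376). That call was lost without high glucose replicate 1, 2 or 3 (adjusted P = 0.0979, 0.0743 and 0.0792) and, at an adjusted P of 0.0729, when replicate numbers entered as a block. The 4 genes of this group had a median log2 fold change of -0.31.

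eEF2 and the kinase that inhibits it moved in opposite directions. Eef2 (ENSMUSG00000034994, chr10:81176631-81182498, plus strand) was at 2358, 2489.8 and 2704 CPM in normal glucose and 2259, 2121 and 2241 CPM in high glucose. The lowest normal glucose culture stood just above the highest high glucose culture, and the log2 fold change was -0.19 (SE 0.061, adjusted P = 0.0387). This call was among the least stable, being lost without high glucose replicate 1, 2 or 3 (adjusted P = 0.0654, 0.113 and 0.0802), without normal glucose replicate 3 (0.114), with no filter (0.0591) and with the replicate block (0.0668). Eef2k (ENSMUSG00000035064, chr7:120842831-120907450, plus strand) was at 33.6, 32.6 and 35.03 CPM in normal and 42.4, 42.9 and 43.1 CPM in high glucose. It was the largest rise among the 67 genes, with a clear gap between the groups and a log2 fold change of 0.34 (SE 0.051, adjusted P = 0.000566), and it passed in all 18 other settings tried, with values from 0.19 to 0.36. Its exons overlap those of Gm15774 on the opposite strand. The Eef2k rise concerns mRNA, and neither kinase activity nor phosphorylation of eEF2 was measured.

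**Figure D3:**
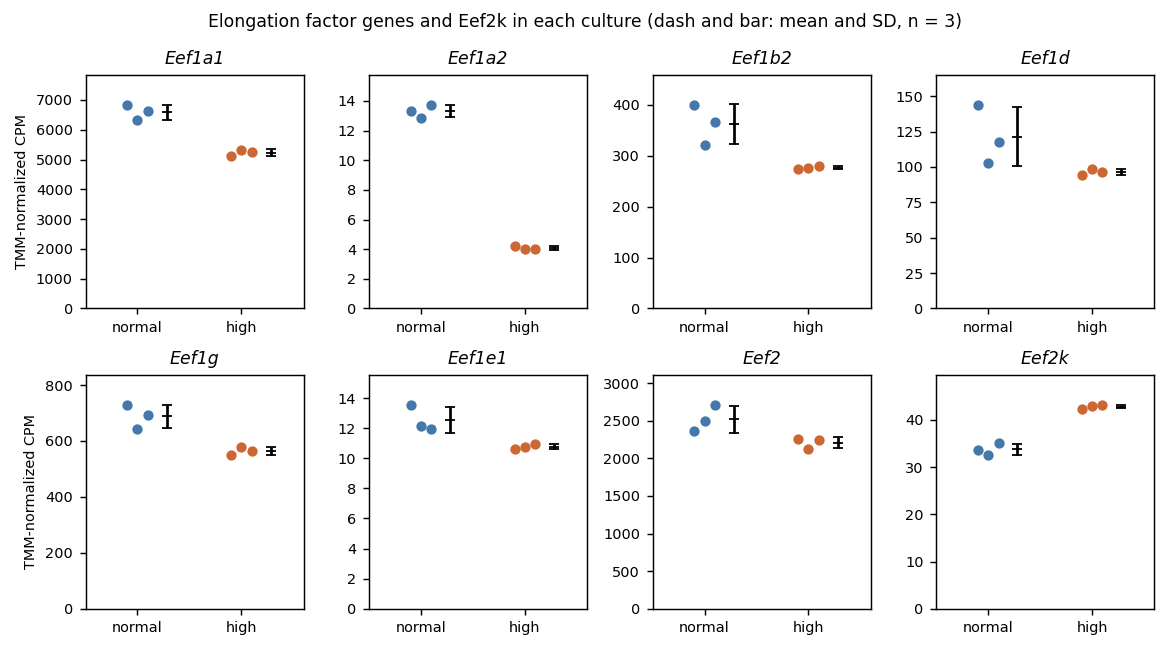
TMM-normalized CPM (y axes, from 0) of the 7 lower genes with an elongation factor symbol and of Eef2k. Points are the 3 normal and 3 high glucose cultures, with a dash and bar for mean and SD. Every high glucose point of the 7 genes lies below the normal glucose points, narrowly for Eef2, and the Eef2k points lie above.

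Apart from the kinase and the methyltransferases, all 7 genes with an elongation factor symbol passed the test in the same direction, with a median log2 fold change of -0.33. Together these 7 took 1.09%, 1.04% and 1.08% of all counts in the normal glucose cultures, against 0.801%, 0.802% and 0.815% in the high glucose cultures. Initiation factor symbols, of which 54 were tested, showed 9 lower and 3 higher with a median of -0.070.

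Promoter sequence was examined because several of these genes moved together and because pyrimidine tracts near the start site are known for this family. RefSeq windows of 300 bases, from 250 before to 50 after the annotated start (GRCm38.p6), were matched for 52 of the 68 genes. A run of at least 8 pyrimidines (C or T) within 50 bases of the start was found in 25 of the 52, that is 48.1%, and in 39.2% of 17492 protein-coding genes. It was present in 7 of 12 lower genes, 2 of 3 higher genes and 16 of 37 others with a window. The palindrome CACGTG, the E-box read by MYC and related factors, occurred in 13 of the 52, or 25%, and in 8.91% of all genes with a window. It was held by 3 of 12 lower, 1 of 3 higher and 9 of 37 other genes. These matches describe the letters of the windows only. The sequences below are 30 bases each, written from 5′ to 3′ on the strand of the gene. Capitals mark a pyrimidine run of at least 8 for the eEF1A paralogs, Eef2 and Eif2b2. For Eef1b2, which held none of 8 near its start, they mark the longest run. In the order shown, the first capital lies at base -5, -19, 15, 6 and 33 from the annotated start. No run begins at that start, and whether any is a terminal tract of the mRNA was not tested. The sequences lie at chr9:78481710-78481739 (minus strand), chr2:181157014-181157043 (minus), chr10:81176634-81176663 (plus), chr12:85219475-85219504 (plus) and chr1:63176850-63176879 (plus), in the order shown.
Eef1a1: gctggctccgCCCTCTTCCCgagggtgggg
Eef1a2: ttttgcctgTTTTTCTCTCCTggtctgcgt
Eef2: gacgtcagcggTCTCTTCCgccgcagccgc
Eif2b2: gcggaagttgaCCTCTCTCggcccggaagt
Eef1b2: ttgcgtccgagcgCTTTCgttcaactccgg

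The E-box, in capitals, is shown for Eef2 and for 3 genes of the cap-binding complex and a subunit of eIF3. Of these 5 genes only Eef2 passed the test, with a log2 fold change of -0.19, beside -0.15 for Eif4a1, -0.14 for Eif4e, -0.12 for Eif3a and 0.0055 for Eif4g1. Differences between the 5 were not tested. The stretches lie at chr10:81176576-81176605 (plus), chr11:69672595-69672624 (minus), chr3:138527028-138527057 (plus), chr16:20672661-20672690 (plus) and chr19:60790654-60790683 (minus).
Eef2: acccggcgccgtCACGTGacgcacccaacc
Eif4a1: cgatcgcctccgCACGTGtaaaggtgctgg
Eif4e: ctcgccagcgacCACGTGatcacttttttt
Eif4g1: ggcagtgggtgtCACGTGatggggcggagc
Eif3a: ccgcgagggaatCACGTGgttccttccttt

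The count for the cap-binding complex depended on the processing. Of 11 tested genes of eIF4F and its helicase co-factors, 1 was lower and 1 higher, and their median log2 fold change was 0.0055. Counts for this role group and those after it stand beside 14.5% lower and 16.9% higher over all tested genes. No role group was tested against those shares. With trends on GC content and length removed within each library, 6 were lower (Eif4a1, Eif4b, Eif4e, Eif4e2, Eif4g1 and Eif4g3) and 1 higher. The median of the 11 was then -0.13, and 17.7% of all tested genes were lower. With library size scaling 4 were lower and 0 higher, beside 25.7% and 9.57% of all tested genes. Eif4e, the cap-binding subunit, was at 86.8, 87.5 and 78.1 CPM in normal and 72.5, 81.9 and 74.2 CPM in high glucose. The groups overlapped, and the log2 fold change of -0.14 (SE 0.066, adjusted P = 0.127) did not pass. It passed with the trends removed (adjusted P = 0.0290) and, at a log2 fold change of -0.26, with library size scaling (adjusted P = 0.0130). Eif4a1, the helicase, was at 489, 438 and 455 CPM and 405, 425 and 418 CPM, a log2 fold change of -0.15 (SE 0.056, adjusted P = 0.0714) without overlap between the groups. It passed under 6 other settings, among them DESeq2 (adjusted P = 0.0266) and upper quartile scaling (0.0277), and without normal glucose replicate 2 (0.0232). Of its windows, 27.7% also occurred in other genes, chiefly in the pseudogene Eif4a-ps4.

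Eif4g1, the scaffold of the complex, was at 549, 563 and 585 CPM in normal glucose and 574, 565 and 564 CPM in high glucose. The groups overlapped, and its log2 fold change of 0.0055 (SE 0.049, adjusted P = 0.947) turned to -0.12 (adjusted P = 0.0324) once those trends were removed. Eif4g3, its paralog, was at 158, 166 and 167 CPM and 176, 167 and 173 CPM, with a log2 fold change of 0.072 (SE 0.050, adjusted P = 0.309) that likewise turned to -0.15 (adjusted P = 0.0254). Eif4a2, the second helicase, was at 297, 274 and 241 CPM and 261, 271 and 266 CPM and overlapped between groups (log2 fold change -0.026 (SE 0.072, adjusted P = 0.820)). No direction can therefore be given for these 3 genes.

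Among the co-factors, Eif4b (ENSMUSG00000058655, chr15:102073773-102097173, plus strand), which stimulates the helicase and is a target of S6 kinase, was the lower gene. It was at 378, 362 and 364 CPM in normal and 311, 322 and 307 CPM in high glucose. The groups lay well apart, with a log2 fold change of -0.23 (SE 0.049, adjusted P = 0.00514), and it passed in all 18 other settings. Eif4e3, an atypical cap-binding paralog, was the higher gene, with 32.8 ± 1.26 CPM (SD, n = 3) in normal and 37.7 ± 2.57 CPM in high glucose and a log2 fold change of 0.20 (SE 0.062, adjusted P = 0.0319). It shares exons with Gm20696 on the same strand, and its call remained only without high glucose replicate 1 or normal glucose replicate 1 among the 6 fits that leave out a culture. The call was also lost with library size scaling (log2 fold change 0.087, adjusted P = 0.300), upper quartile scaling (0.0772), no filter (0.0871) and the replicate block (0.0626).

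With TMM, the 4E-binding proteins, which hold eIF4E away from eIF4G, were the one initiation group with more higher than lower genes. Of 4 tested, 2 were higher and none lower, beside 16.9% higher over all tested genes. Only 1 was higher with DESeq2, RLE, upper quartile scaling, no filter or the GC and length trend removed. With library size scaling or without high glucose replicate 1 it was 0. Eif4ebp2 (ENSMUSG00000020091, chr10:61428491-61452661, minus strand) was at 134, 144 and 137 CPM in normal and 163, 165 and 158 CPM in high glucose. All high glucose cultures lay above the normal glucose cultures, a log2 fold change of 0.23 (SE 0.051, adjusted P = 0.00663). The call was lost without high glucose replicate 1 (adjusted P = 0.0526), with library size scaling (0.109) and with the GC and length trend removed (0.0796, log2 fold change 0.10). Eif4ebp1, the best known member, was at 83.2, 76.5 and 83.1 CPM and 80.6, 83.05 and 80.3 CPM. The groups overlapped, and its log2 fold change of 0.0066 (SE 0.053, adjusted P = 0.941) was below 0 with each of the other scalings. Eif4enif1, which carries eIF4E into the nucleus, rose from 46.4 ± 3.25 to 52.6 ± 1.36 CPM (log2 fold change 0.18 (SE 0.061, adjusted P = 0.0465)), a call lost in each of the 6 fits that leave out a culture, and with DESeq2, RLE, library size and upper quartile scaling, halved counts and no filter. The log2 fold change was 0.065 with library size scaling and 0.11 without normal glucose replicate 1. Eif4ebp3 was at 0.192, 0.0705 and 0.0703 CPM in normal and 0.211, 0.0602 and 0.0965 CPM in high glucose. These levels were too low to show a difference at this depth. Of its windows, 64.2% also occurred in AC115631.1, which overlaps it on the same strand, and how reads were divided was not tested.

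For eIF2, which carries the initiator tRNA, all 6 genes of the group had log2 fold changes below 0 and 2 passed the test, with a median of -0.16. Eif2s1 encodes the alpha subunit, whose phosphorylation slows initiation under stress. It was at 61.4, 59.5 and 56.3 CPM in normal and 51.3, 57.6 and 53.99 CPM in high glucose, with overlap and a log2 fold change of -0.12 (SE 0.060, adjusted P = 0.149). Eif2s3x, the X-linked gene of the gamma subunit, was at 91.4, 105 and 98.5 CPM and 84.7, 87.8 and 84.98 CPM. The groups did not overlap, and the log2 fold change was -0.20 (SE 0.060, adjusted P = 0.0300). The call passed in 1 of the 6 fits that leave out a culture, that without normal glucose replicate 1, with adjusted P values up to 0.0884 in the others, and 35.7% of its windows also occurred in 2 other genes. Its Y-linked copy Eif2s3y was at 43.5, 38.6 and 34.2 CPM and 35.1, 38.8 and 36.1 CPM, overlapping, with a log2 fold change of -0.080 (SE 0.083, adjusted P = 0.502). Eif2a, an alternative carrier of the initiator tRNA, fell from 43.5 ± 2.26 to 37.8 ± 2.61 CPM (log2 fold change -0.21 (SE 0.065, adjusted P = 0.0348)), and this call was lost without high glucose replicate 1 or 3, without normal glucose replicate 2 and with no filter. Eif2s2, the beta subunit, had the lowest log2 fold change of the group at -0.23 and did not pass (adjusted P = 0.0670), and Eif2d had the highest at -0.073.

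The exchange factor eIF2B, which recharges eIF2 and is blocked by phosphorylated eIF2alpha, had 1 lower gene of 5 and a median of -0.047. Eif2b2 (ENSMUSG00000004788, chr12:85219481-85226628, plus strand), which encodes the beta regulatory subunit, was at 33.96, 31.5 and 34.9 CPM in normal and 28.3, 27.1 and 28.6 CPM in high glucose. The groups did not overlap, and the log2 fold change of -0.26 (SE 0.057, adjusted P = 0.00629) passed in all 18 other settings. Eif2b5, the catalytic subunit, was at 54.9, 52.2 and 54.7 CPM and 51.6, 52.5 and 52.01 CPM, overlapping, with a log2 fold change of -0.052 (SE 0.049, adjusted P = 0.456). Eif2b4 had the highest value of the group at 0.12 and did not pass (adjusted P = 0.203). Only Eif2b2 passed, so no direction can be given for the other subunits, and differences between the subunits were not tested.

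Of the 4 eIF2alpha kinases, each of which senses another stress, only Eif2ak2 passed the test. Eif2ak2 (ENSMUSG00000024079, chr17:78852564-78882573, minus strand) encodes PKR, the kinase activated by double-stranded RNA and induced by interferon. It was at 104, 112 and 104 CPM in normal and 84.8, 89.95 and 88.1 CPM in high glucose, without overlap, a log2 fold change of -0.28 (SE 0.054, adjusted P = 0.00255) that passed in all 18 other settings. Exons of Gm26637 overlap it on the opposite strand. Eif2ak3, which encodes the endoplasmic reticulum stress sensor PERK, was at 53.2, 56.7 and 57.3 CPM and 56.3, 58.4 and 54.2 CPM (log2 fold change 0.014 (SE 0.055, adjusted P = 0.872)). Eif2ak4, which encodes the amino acid sensor GCN2, was at 21.4, 24.3 and 22.4 CPM and 24.6, 24.2 and 23.7 CPM (log2 fold change 0.089 (SE 0.060, adjusted P = 0.289)). Eif2ak1, which encodes the haem-regulated kinase, was at 71.05, 71.2 and 72.1 CPM and 71.1, 73.9 and 73.4 CPM (log2 fold change 0.027 (SE 0.048, adjusted P = 0.711)). The groups overlapped for these 3 kinases, and each had a log2 fold change below 0 with library size scaling. Whether Eif2ak2 differed from them was not tested.

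The promoter window of Eif2ak2 is shown because the letters of the core of an interferon response element stand in it. The letters searched were GAAA, any 2 bases and GAAA, on both strands, which occurred in 4 of the 52 genes with a window (7.69%) and in 3.94% of all genes with one. The match was held by 2 of 12 lower, 0 of 3 higher and 2 of 37 other genes. The stretch with the match in capitals lies at chr17:78882535-78882564, minus strand, with its first capital at base 19 from the annotated start.
Eif2ak2: agtccgccggGAAAACGAAAcagaagagaa

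eIF3, the largest initiation factor, bridges the small ribosomal subunit and eIF4F. Of its 14 genes, 12 had log2 fold changes below 0 and the median was -0.12. Of the 14, 2 passed as lower, or 14.3%, near the 14.5% of all tested genes that were lower. Eif3i had the lowest value, falling from 94.96 ± 4.26 CPM (SD, n = 3) in normal to 82.2 ± 1.94 CPM in high glucose (log2 fold change -0.21 (SE 0.053, adjusted P = 0.0134)). Its call held in each of the 6 fits that leave out a culture. Eif3f fell from 189 ± 11.8 to 166 ± 3.79 CPM (log2 fold change -0.18 (SE 0.058, adjusted P = 0.0342)), a call lost without high glucose replicate 1, 2 or 3, without normal glucose replicate 3 and with the replicate block. Eif3a, the scaffold of the complex, was at 343, 298 and 303 CPM in normal and 285, 295 and 289 CPM in high glucose. The groups did not overlap, yet its log2 fold change of -0.12 (SE 0.062, adjusted P = 0.174) did not pass, and normal glucose replicate 1 stood above the rest of its group. Eif3j2 had the highest value at 0.041 (adjusted P = 0.712), and 87.4% of its windows also occurred in other genes, among them those of its paralog Eif3j1, which shares 50.98% of its own. The 14 values lay within -0.21 and 0.041.

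Among the factors that read the start codon, 1 of 6 passed, and the median was -0.094. Eif1a (ENSMUSG00000057561), an autosomal gene for the scanning factor eIF1A, was at 126, 131 and 119.9 CPM in normal and 102, 108 and 104 CPM in high glucose. The groups lay apart, and the log2 fold change of -0.27 (SE 0.054, adjusted P = 0.00362) passed in all 18 other settings. Its X-linked paralog Eif1ax was at 66.5 ± 3.47 and 60.8 ± 3.08 CPM, overlapping, with a log2 fold change of -0.13 (SE 0.060, adjusted P = 0.131). Eif1ad, which encodes a protein with an eIF1A-like domain, had the highest value at 0.11 (adjusted P = 0.259).

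The late factors gave 1 call. Eif5a and Eif5a2 encode eIF5A, the protein known for its hypusine residue, which helps ribosomes through stretches that are hard to translate. Eif5a was at 352, 324 and 336 CPM in normal glucose and 295, 299.8 and 299 CPM in high glucose, without overlap, with a log2 fold change of -0.18 (SE 0.051, adjusted P = 0.0235). The call was lost without high glucose replicate 1, 2 or 3 (adjusted P = 0.0731, 0.0512 and 0.0691) and with the replicate block (0.0531). Eif5a2 was at 8.83, 11.4 and 9.91 CPM and 9.62, 10.6 and 9.59 CPM, overlapping (log2 fold change -0.019 (SE 0.097, adjusted P = 0.905)). Eif6, which keeps the large ribosomal subunit from joining too early, was at 98.8, 81.6 and 98.6 CPM and 98.6, 94.4 and 92.7 CPM. The groups overlapped, and its log2 fold change of 0.035 (SE 0.075, adjusted P = 0.761) was below 0 with library size and upper quartile scaling. Eif5b, the subunit joining factor, was at 133 ± 28.4 CPM in normal glucose, where replicate 1 stood apart at 165.9 CPM, and at 118 ± 6.87 CPM in high glucose (log2 fold change -0.18 (SE 0.12, adjusted P = 0.299)).

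None of the 5 genes for methyltransferases of the elongation factors passed, although all had log2 fold changes below 0, from -0.27 for Eef1akmt3 (adjusted P = 0.0574) to -0.10 for Eef1akmt2. Their median was -0.19. Mettl13, a methyltransferase of eEF1A that the symbol rule does not take in, rose with a log2 fold change of 0.28 (adjusted P = 0.00481).

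Ratios of 2 genes within a library do not depend on the scaling between libraries, and 7 such ratios of paralogs or partners were compared. In 4 of them the cultures did not overlap between the groups. Each of the 4 had an exact two-sided permutation P of 0.1, the smallest this design allows, and 0.175 after adjustment over the 7, so none could pass. The log2 ratio of Eef1a2 to Eef1a1 counts was -9.00, -8.94 and -8.91 in the normal and -10.24, -10.37 and -10.36 in the high glucose cultures. The minor paralog thus fell further than the major one, to 0.387 times its former ratio. The log2 ratio of Eef2k to Eef2 was -6.13, -6.26 and -6.27 in normal and -5.74, -5.63 and -5.70 in high glucose. The kinase mRNA stood 1.45-fold higher relative to that of its substrate in high glucose.

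The other paralog ratios moved less. Eif4a2 to Eif4a1 was -0.72, -0.67 and -0.92 in normal and -0.63, -0.65 and -0.65 in high glucose on the log2 scale, a difference of 0.12. Eif4g3 to Eif4g1 differed by 0.066. Both gaps were narrow, and the first difference was 0.051 without normal glucose replicate 3. The ratios of Eif4ebp1 to Eif4e (difference 0.15, exact P = 0.2, adjusted 0.28), of Eif5a2 to Eif5a (0.17, exact P = 0.3, adjusted 0.35) and of Eif2s3y to Eif2s3x (0.12, exact P = 0.4, adjusted 0.4) overlapped between the groups. Without 1 normal glucose culture these 3 differences fell to 0.082 (replicate 2), 0.045 (replicate 1) and 0.032 (replicate 3).

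**Figure D4:**
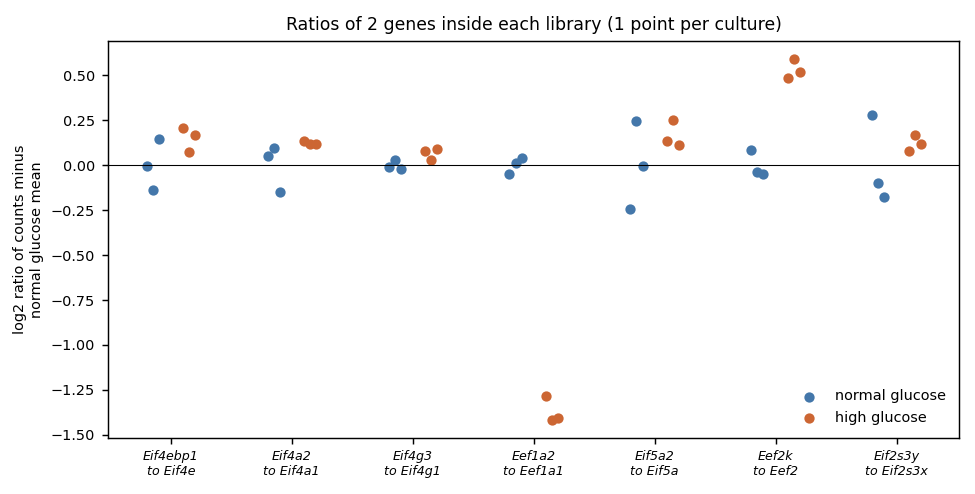
Log2 ratio of 2 genes' counts in each culture minus the mean of the normal glucose cultures (y axis), for the 7 ratios (x axis), with 3 normal and 3 high glucose points each. The Eef1a2 to Eef1a1 points of high glucose lie far below 0 (difference -1.37) and those of Eef2k to Eef2 above it (difference 0.53), while the others lie within the spread of normal glucose or just beyond it.

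Other genes of translation control were taken from lists chosen for their role. Of 13 genes of mTORC1 and its regulators, 5 were higher and 1 lower, with a median of 0.072. Over all tested genes, 16.9% were higher and 14.5% lower, and the list was not tested against these shares. The kinase gene Mtor was at 42.8, 54.8 and 56.04 CPM in normal and 68.3, 64.7 and 64.6 CPM in high glucose, without overlap (log2 fold change 0.36 (SE 0.091, adjusted P = 0.0125)). Its partners Rptor (log2 fold change 0.35 (SE 0.086, adjusted P = 0.0114)) and Mlst8 (0.21 (SE 0.058, adjusted P = 0.0173)) rose with it. Normal glucose replicate 1 was the lowest culture for all of these, with Rptor at 48.1 CPM there beside 59.3 and 62.4 CPM. The inhibitors of the pathway were divided in direction. Deptor, which binds and inhibits mTOR, rose from 20.8 ± 1.86 to 47.96 ± 1.75 CPM (log2 fold change 1.21 (SE 0.070, adjusted P = 8.29e-07)), and so did Tsc1 (0.23 (SE 0.079, adjusted P = 0.0452)), whereas Sesn2, induced by stress and amino acid shortage, fell (-0.25 (SE 0.063, adjusted P = 0.0112)). Calls on single genes of this list and the lists after it were not followed through the other settings. Activity of mTORC1 was not measured in these libraries.

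The poly(A)-binding proteins, which join the tail of the mRNA to eIF4G, had 2 lower genes of 6. Counts for this list and the short lists after it stand beside 14.5% lower and 16.9% higher over all tested genes. None of these lists was tested against those shares. Pabpc1, whose mRNA belongs to the same pyrimidine tract class as those of the elongation factors, was at 859, 876 and 869.7 CPM in normal and 651, 658 and 659 CPM in high glucose. It fell without overlap, with a log2 fold change of -0.40 (SE 0.046, adjusted P = 9.73e-05), and Pabpc4 had a log2 fold change of -0.27 (SE 0.051, adjusted P = 0.00254). Of 7 other initiation factors, Denr, a partner in reinitiation, was lower (-0.28 (SE 0.080, adjusted P = 0.0227)) and none was higher. Of 5 genes for the phosphatase of eIF2alpha, the targeting subunit Ppp1r15b was higher (0.25 (SE 0.053, adjusted P = 0.00514)) and none was lower. Of 9 enzymes that make hypusine and diphthamide, the modified residues of eIF5A and eEF2, only Dph5 passed, and it was higher (0.32 (SE 0.097, adjusted P = 0.0304)). None passed among 8 eIF4E kinases and cap-complex regulators, 3 termination factors and 9 mitochondrial translation factors, with medians of 0.024, -0.026 and 0.023. The cytoplasmic and mitochondrial elongation factors were not compared by a test.

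**Figure D5:**
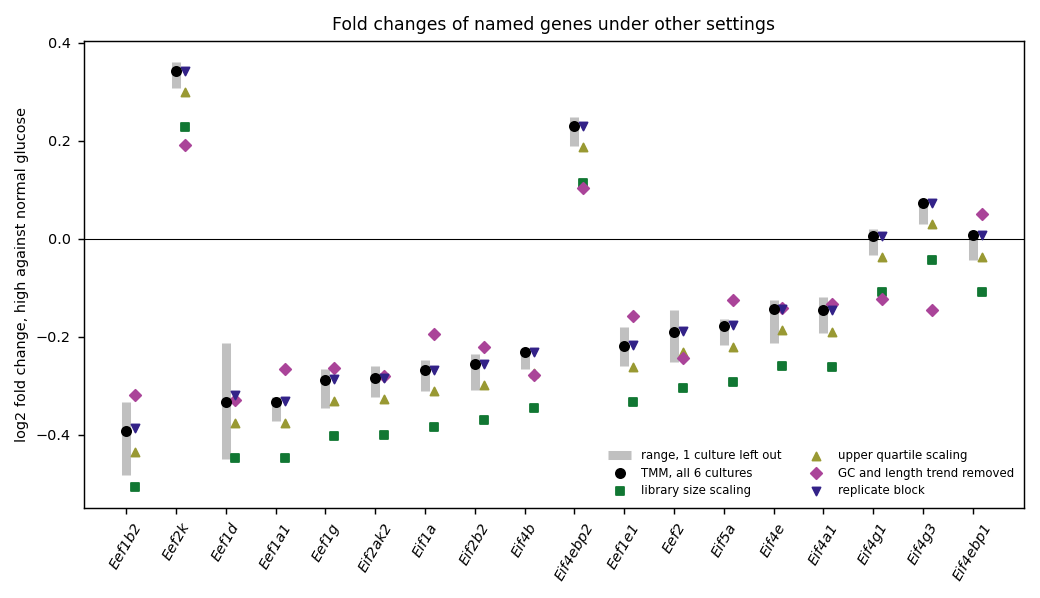
Log2 fold changes, high against normal glucose (y axis), of 18 translation factor genes (x axis) with TMM and all 6 cultures (black), over the fits that leave out 1 culture (grey bars) and with other settings (coloured symbols). Eef2k and Eif4ebp2 stay above 0 and 13 genes stay below 0 in every setting drawn, while Eif4g1, Eif4g3 and Eif4ebp1 cross 0. Eef1a2 is off this scale and not drawn.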

How the data were processed

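RNA from 6 cultures was sequenced in bulk, 3 in normal and 3 in high glucose. Per the labels and methods, the authors used Trimmomatic for trimming, HISAT2 for alignment to GRCm38 (mm10) and StringTie for reads per gene, and deposited whole-number counts without normalization. Versions, annotation release and strand setting are not given in the sources used here. The methods name a QIAGEN kit and an Illumina HiSeq, the labels TRIzol and DNBSeq. A symbol was found for 55141 of 55487 identifiers. Gene type, position and transcript sequence came from GENCODE for GRCm38.

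All genes entered 1 fit in edgeR 4.0.16 (R 4.3.3), with filterByExpr (minimum count 10, minimum total 15), TMM scaling and the quasi-likelihood test. Calls were made at a Benjamini-Hochberg adjusted P value under 0.05. CPM are TMM-normalized, and CPM per kilobase use the summed exon length. The biological coefficient of variation was 8.44%. Replicates of a group differed by more than sampling noise (chi-square per degree of freedom of at least 9.03). Exact two-sided permutation tests were run over samples. The fit was tested on simulated data: of 18746 genes, 200 were changed, of which 67.5% were called (40% at a 1.25-fold change), with 13 calls among the unchanged. Directions were drawn at random for these few genes, whereas 31.4% of tested genes were called in the real data. The simulation therefore does not test the fit under so broad a change.

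The genes and lists were chosen with earlier results of these data known. Values are given by culture for the 12 called genes with the largest absolute log2 fold change, a mean log2 CPM of 1 or more and no overlap, and for genes chosen for their place in the pathway. The others are given as counts, with the lowest and highest of each group, and the called genes of each pathway list by name. Means with SD for called and other genes outside this rule, and Mettl13, were added after their values were seen. Alternatives were DESeq2 1.42.0, a likelihood ratio test, a robust fit, other scalings and thresholds, no filter, halved counts, summed pseudogenes, a replicate block, removal of trends on GC content and length (mgcv 1.9.3) and each culture left out.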

Additional observations from a re-analysis of the deposited data

How the results depend on the processing

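The median of the translation factor genes was below 0 in every setting tried. Leaving out 1 culture gave 9 to 21 lower genes, 2 to 3 higher genes and a median of -0.14 to -0.070. The median of -0.070 came without normal glucose replicate 1. Between 10.6% and 15.9% of all tested genes were lower in these fits. Library size scaling gave 37 lower and 1 higher, beside 25.7% and 9.57% of all tested genes, with a median of -0.23 for the translation factor genes. Upper quartile scaling gave 2 higher and no filter 2 higher, beside 13.8% and 7.31% of all tested genes. An adjusted P value under 0.01 left 8 lower and 2 higher, beside 8.79% and 10.2% of all tested genes. A fold change of at least 1.5 left 1 lower and 0 higher. The cause of these shifts was not tested, apart from the smaller sample and the stricter thresholds that the settings bring by construction. DESeq2 gave 20 lower and 3 higher, beside 15.7% and 16.5% of all tested genes. Summing the 10 pseudogenes with matching symbols into their parents left 16 and 4. None of the 10 has an elongation factor gene as its parent. Pseudogenes under other names, among them those sharing windows with Eef1a1, Eef1g and Eif2s3x, were not summed. The setting therefore cannot show how reads divided among those copies would change the calls. With the GC and length trends removed, 24 were lower and 3 higher, 16 of the 24 among the 16 genes called with TMM. Of all tested genes, 17.7% were then lower and 17.5% higher.

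When replicate numbers entered the fit as a block, 12 genes were lower and 3 higher, all among those called without it, and the calls on Eef1e1, Eef2, Eif3f, Eif5a and Eif4e3 were lost. Deviations of same-numbered cultures from their group means correlated at 0.028, 0.075 and 0.11 over 12442 genes, so the numbers were not taken to pair the cultures. The trends removed together with the block gave 19 lower and 3 higher, beside 15.8% and 15.3% of all tested genes. With the block alone, 12.7% of all tested genes were lower and 15.3% higher.

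The genes that changed direction all lay near 0 and none was called with TMM. Eif4g1 was at -0.0066 with DESeq2, -0.0066 with RLE, -0.11 with library size, -0.037 with upper quartile scaling, -0.014 with halved counts, -0.015 with no filter and -0.12 with the trends removed, without or with the block (-0.122 each). Eif4ebp1 was at -0.0052 with DESeq2, -0.0053 with RLE, -0.11 with library size, -0.036 with upper quartile scaling, -0.013 with halved counts and -0.014 with no filter. With library size, Eif2ak1 was at -0.088, Eif2ak3 at -0.10, Eif2ak4 at -0.027, Eif6 at -0.079 and Eif4g3 at -0.043. With upper quartile scaling, Eif2ak1 was at -0.016, Eif2ak3 at -0.029 and Eif6 at -0.0083. With the trends removed, without and with the block, Eif2ak1 was at -0.026 and -0.026, Eif2ak3 at -0.058 and -0.059, Eif2ak4 at -0.0035 and -0.0028, Eif4a2 at 0.056 and 0.058, and Eif4g3 at -0.15 and -0.14. Eif2ak3 was at -0.0053 with halved counts and -0.0064 with no filter.

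Over the fits that leave out 1 culture, Eif4g1 ranged from -0.034 to 0.021, Eif4ebp1 from -0.043 to 0.016, Eif2ak3 from -0.037 to 0.024, Eif6 from -0.062 to 0.069, Eif4a2 from -0.11 to 0.028 and Eif5a2 from -0.12 to 0.071. Restricted to genes with a mean log2 CPM of 3 or more, the medians of the hypusine and diphthamide enzymes (-0.014) and of the mitochondrial factors (-0.020) were below 0. All 7 within-library ratios kept their direction without any 1 culture, although 4 of them moved by over 1.5 times. Of the 12 called genes with the largest changes, 9 passed in all 6 fits that leave out a culture. Depth, at 120192466 or more counts per library, limits Eif4e1b and Eif4ebp3, and Eif4ebp3 also shares 64.2% of its windows with AC115631.1.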
